A study of Mus musculus with 7 samples.

Results

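Iron storage and transport genes were read in bile duct epithelial cells by 8 listed members, which are Fth1, Ftl1, Ncoa4, Tfrc, Slc11a2, Slc40a1, Cp and Ireb2. All 8 were rows of a table of 24552 gene symbols, and they were chosen by name. The cells were EpCAM+ cholangiocytes sorted from livers of Foxp3GFPDTR mice, whose Foxp3-positive regulatory T cells carry the receptor for diphtheria toxin. The DT group (3 libraries) ate DDC, a diet that injures bile ducts, for 10 days and received intraperitoneal diphtheria toxin at 1 µg/kg every 48 h. The PBS group (4 libraries) had the same genotype and diet and received saline on the same schedule, so both groups carried the DDC injury and no group on normal chow is part of the comparison. The age of the mice, and whether each library came from a separate animal, are not given in the labels, so the p-values reflect how far these 7 libraries scatter, some of which may be technical.

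Cells take up transferrin-bound iron through the transferrin receptor (Tfrc), and the divalent metal transporter (Slc11a2) moves the iron from endosomes into the cytosol. Ferritin, a shell of heavy (Fth1) and light (Ftl1) chains, stores what is not used, and Ncoa4 carries ferritin to lysosomes when iron is needed. Ferroportin (Slc40a1) is the exporter, and ceruloplasmin (Cp) is a copper ferroxidase, mostly secreted by hepatocytes, that oxidises the exported iron so that transferrin can bind it. Iron regulatory proteins, among them the product of Ireb2, bind hairpins called iron-responsive elements when iron is scarce. Bound in a 5′ untranslated region a hairpin blocks translation, and bound in the 3′ untranslated region of Tfrc it protects the mRNA from decay.

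These elements are shown because they set what read counts can tell of each member: the amount of Tfrc mRNA is known to follow the binding directly, while the binding controls ferritin mostly at translation, which read counts do not measure. GENCODE M21 protein-coding transcripts (GRCm38) were searched on the transcript strand for the letters CAGTGN as a 6-base loop, flanked by 5-base stems that pair with each other (G-T pairs allowed), with an unpaired C before the 5′ stem. A match lay in an untranslated region of 4 of the 8 members, against 0.731% of 21877 protein-coding genes. The members were chosen by name as iron genes, so this difference follows from the choice and is not read as a result. Capitals mark the unpaired C and the loop in these 30-base sites.
Fth1, chromosome 19, 5′ untranslated region: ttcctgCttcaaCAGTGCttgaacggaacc
Ftl1, chromosome 7, 5′ untranslated region: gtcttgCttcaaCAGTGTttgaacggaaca
Slc40a1, chromosome 1, 5′ untranslated region: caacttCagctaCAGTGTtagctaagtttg
Tfrc, chromosome 16, 3′ untranslated region: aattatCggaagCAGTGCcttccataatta
Tfrc, the next site: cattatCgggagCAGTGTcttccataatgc
Tfrc, the next site: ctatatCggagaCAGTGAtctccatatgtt
Tfrc, the last site found: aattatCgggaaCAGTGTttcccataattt
Each ferritin chain and Slc40a1 held 1 match, and Tfrc held 4. No match in the other 4 members says only that these letters are not there in this arrangement.

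Counts per library totalled 4805018 to 6285624. Levels are given as counts per 1000000 reads (CPM), on library sizes scaled by TMM, as mean ± SD. Because 3′-end libraries read each transcript near its end, CPM of different genes are set side by side with no correction for length. Counts of 0 were common: of the values for genes that averaged 400 to 800 counts in the rest of their group, 12.4% were 0, against 2.33% for averages of 800 to 1600 and 0.112% for 1600 to 3200. The bile duct markers Epcam, Krt19 and the 10 others listed all had counts, with 21957 to 26682 summed CPM in DT and 19697 to 24051 in PBS. Of 12 erythroid markers, a lineage rich in Tfrc, 11 had 0 counts in every library, and the sum did not pass 0.412 CPM in any.

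Together the 8 genes took 0.628%, 0.609% and 0.558% of counts in DT 1 to 3, and 0.382%, 0.423%, 0.485% and 0.630% in PBS 1 to 4. PBS 4 was the highest of the 7 libraries and the other PBS libraries were the lowest. Averaged over the 7 libraries, Cp stood at 3097 CPM, Fth1 at 1481, Ftl1 at 505, Tfrc at 162, Slc40a1 at 95.2, Ireb2 at 68.0 and Slc11a2 at 66.5 CPM. Cp was the 12th and Fth1 the 56th of the 11487 genes with a count. Cp lay above Fth1, and Fth1 above Ftl1, in 7 of 7 libraries. Further down the order was not stable: Ftl1 was above Tfrc in 5 of 7 libraries, Tfrc above Slc40a1 in 4, Slc40a1 above Ireb2 in 4, and Ireb2 above Slc11a2 in 3.

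**Figure D1:**
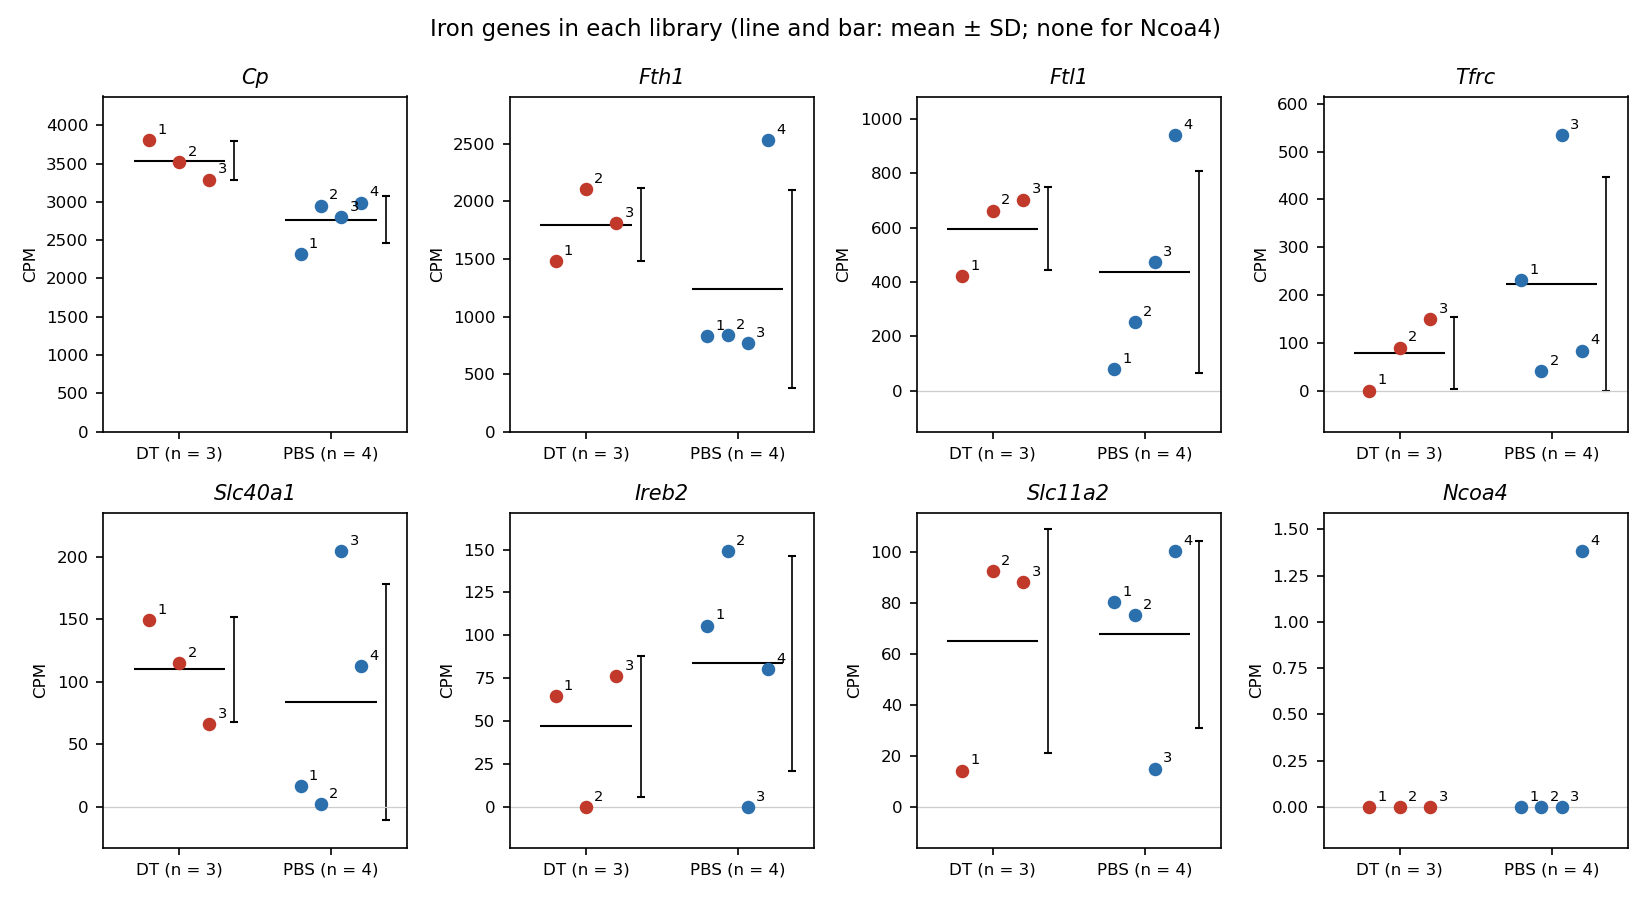
Level of each of the 8 genes in CPM on the y axis, with DT libraries in red and PBS libraries in blue, numbered by replicate; lines and bars are the mean ± SD. Cp is the only gene whose 3 DT points all lie above the 4 PBS points, and Fth1 is high in PBS 4 (2532 CPM) and at 766 to 840 CPM in the other PBS libraries.

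None of the 7 tested members passed the comparison of DT with PBS by edgeR or DESeq2, and Cp alone passed by limma-voom. Ncoa4 was not tested. In edgeR (quasi-likelihood F test, Benjamini-Hochberg adjusted p below 0.05), 0 of the 7 members tested were called, and 0 had an unadjusted p below 0.05, where 0.039% of all 7688 tested genes were called and 3.5% had such an unadjusted p. DESeq2 called 0 of the 7 and had 1 at an unadjusted p below 0.05 (Cp), beside 1.43% and 6.15% of the 7364 genes it gave a p for. The limma-voom test with sample weights called 1 (Cp) and had 2 at that unadjusted p (Cp and Ftl1), beside 0.273% and 7.45% of all 7688 genes. Fold changes were positive for 4 members and negative for 3, with a median log2 fold change of 0.36, beside -0.02 over all tested genes. The edgeR adjusted p was 1.00 for each of the 7.

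Ferritin mRNA was abundant, and its spread among PBS libraries was wide. Fth1, the heavy chain with the ferroxidase activity of ferritin, had 8905, 11221 and 10261 counts in DT 1 to 3, and 4282, 4262, 3720 and 12827 counts in PBS 1 to 4. PBS 4 was above every DT library and PBS 1 to 3 were below every DT library, so the groups overlapped through PBS 4 alone. Fth1 averaged 1799 ± 314 CPM in DT (SD, n = 3) and 1242 ± 860 CPM in PBS (SD, n = 4), a log2 fold change of 0.53 with an SE of 0.38 (edgeR adjusted p = 1.00). The 95% interval of the fold ran from 0.827 to 2.54.

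Without PBS 4, the log2 fold change of Fth1 was 1.14 (SE 0.26), a 2.21-fold higher level in DT with a 95% interval of 1.51 to 3.22. It did not pass this edgeR fit either (adjusted p = 0.365, unadjusted p = 3.68e-04), in which 0.0289% of 6926 tested genes were called. Each DT library then lay above each PBS library, but this was fixed once the only overlapping library was left out. The same held for 12.6% of the 749 genes averaging at least 8 log2 CPM, a set not used to choose PBS 4. PBS 4 is singled out here for its Fth1 level, so the fold, its interval and its p-value follow in part from that choice. PBS 4 was also the library richest in macrophage reads. Of the 15 macrophage and Kupffer cell markers found among the gene symbols, 13 had counts. Their summed level was 214, 357 and 379 CPM in DT 1 to 3, and 63.1, 122, 56.4 and 1214 CPM in PBS 1 to 4. PBS 1 to 3 were the lowest and PBS 4 the highest of all 7 in both measures. Csf1r, a receptor of macrophages, alone made up 61.9 CPM of the sum in PBS 1, 90.3 in PBS 2 and 56.4 in PBS 3. Among DT libraries, DT 3 had the highest macrophage sum and DT 2 the highest Fth1. Lyz2 is a lysozyme of macrophages and other myeloid cells. It had 81, 69 and 330 counts in DT 1 to 3, and 6, 8, 0 and 1522 in PBS 1 to 4. Adgre1 and Cd163, which mark resident macrophages, were at 0 throughout. Other listed markers had reads in PBS 4, with 443 counts of Cd5l, 213 of Timd4, 188 of Marco and 136 of Vsig4. Timd4 had reads in no other library, while Cd5l had 194 and Marco 94 counts in DT 2, and Vsig4 249 in DT 3. C1qb went another way, highest in DT 1, with 719, 312 and 209 counts in DT 1 to 3, and 0, 106, 0 and 311 in PBS 1 to 4. C1qa and C1qc were highest in PBS 4, with 742 and 898 counts, and C1qa had 460, 70 and 215 in DT 1 to 3. Macrophages are rich in ferritin, and the part of these reads in the Fth1 and Ftl1 values was not tested. In sorted bulk cells, a change in the share of a cell type and a change in RNA per cell cannot be told apart.

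Ftl1, the light chain that helps to form the iron core, had 2536, 3526 and 3986 counts in DT 1 to 3, and 411, 1285, 2294 and 4768 counts in PBS 1 to 4. On the CPM scale it was at 421, 662 and 703 in DT 1 to 3, and at 79.8, 253, 473 and 941 in PBS 1 to 4. PBS 4 was again above every DT library, PBS 3 lay within their range in CPM, and PBS 1 and PBS 2 were below every one. Ftl1 averaged 595 ± 152 CPM in DT (SD, n = 3) and 437 ± 373 CPM in PBS (SD, n = 4), a log2 fold change of 0.45 with an SE of 0.65 (edgeR adjusted p = 1.00). Its coefficient of variation was 25.6% in DT and 85.4% in PBS, where the 296 genes of like level (within 0.5 on the log2 scale) had medians of 30.4% and 32.0%. For Fth1 the values were 17.5% in DT and 69.2% in PBS, against medians of 19.8% and 22.0% for 79 genes of like level. Both chains thus varied among PBS libraries more than most genes of their level, and in DT by less than the median of such genes. Without PBS 4 the log2 fold change of Ftl1 was 1.14 with an SE of 0.52 (edgeR adjusted p = 1.00), and without PBS 1 it was 0.09.

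The heavy chain made up 77.8%, 76.1% and 72.0% of ferritin counts (Fth1 and Ftl1 together) in DT 1 to 3, and 91.2%, 76.8%, 61.9% and 72.9% in PBS 1 to 4. The Wilson 95% intervals, which cover counting error only, were at most 2.45 percentage points wide, so PBS 1 and PBS 3 lay outside the range of the DT libraries by more than counting error. The groups averaged 75.3% ± 2.98 in DT (SD, n = 3) and 75.7% ± 12.1 in PBS (SD, n = 4), a difference smaller than either spread. Copies of ferritin genes are many in the mouse genome, and reads shared with them could be lost or split in counting. The related rows in the table, 7 Fthl17 rows and the mitochondrial ferritin Ftmt, were at 0 in every library.

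Ncoa4, the receptor that delivers ferritin to lysosomes, had 0 counts in DT 1 to 3 and in PBS 1 to 3, and 7 counts in PBS 4. Both groups were at or near the floor of 3 counts that a count of 0 allows, so no fold is given, and it was the member removed by the filter on low counts. A count this low for a gene in wide use does not show that its mRNA was absent.

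**Figure D2:**
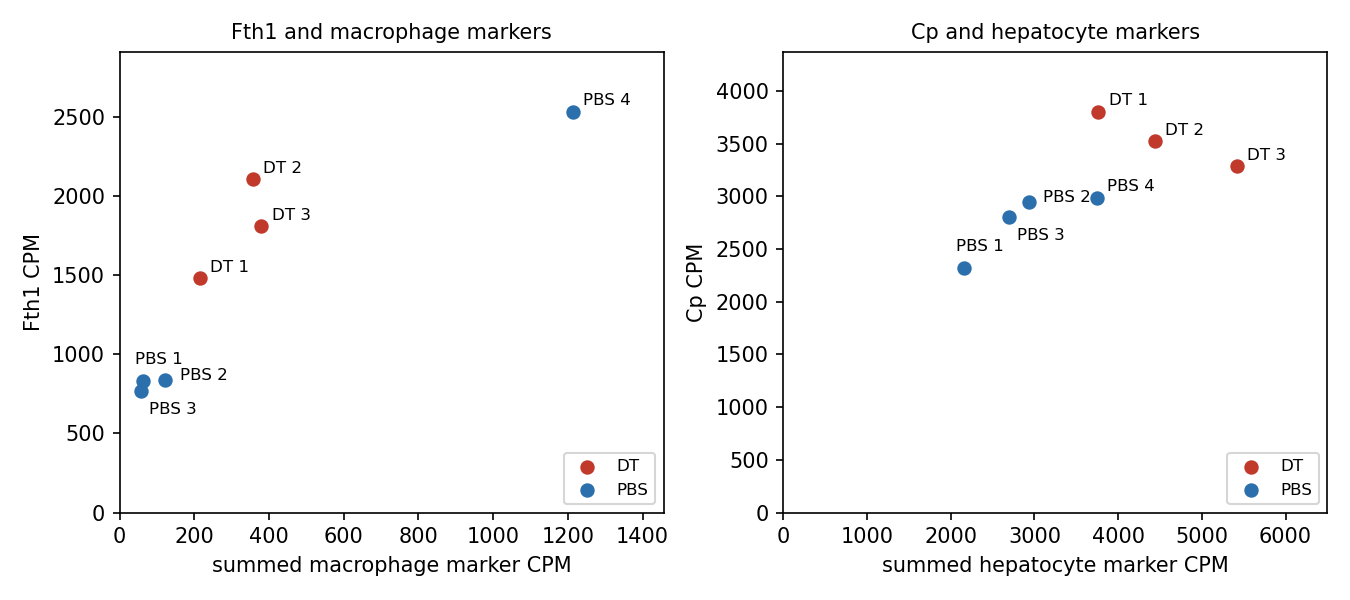
Left, Fth1 level against the summed level of macrophage markers; right, Cp level against the summed level of hepatocyte markers, each in CPM with 1 point per library (DT red, PBS blue). PBS 4 stands apart at 1214 summed macrophage CPM, and the DT libraries hold the highest 3 hepatocyte sums, from 3763 to 5418 CPM.

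Cp, the ferroxidase, was the member with the highest level and the least spread. It had 22900, 18758 and 18648 counts in DT 1 to 3, and 11952, 14962, 13609 and 15141 counts in PBS 1 to 4. On the CPM scale these were 3804, 3523 and 3289 in DT, and 2320, 2950, 2803 and 2989 in PBS, so that every DT library lay above every PBS library. That held for 1 of the 7 tested members, beside 3.73% of all 7688 tested genes. Among the 733 genes averaging at least 8 log2 CPM, as Cp does, it held for 7.37%. Cp averaged 3539 ± 258 CPM in DT (SD, n = 3) and 2765 ± 308 CPM in PBS (SD, n = 4), a log2 fold change of 0.36 with an SE of 0.20 (edgeR adjusted p = 1.00). The 95% interval of the fold ran from 0.972 to 1.68. It passed as higher by limma-voom with sample weights (log2 fold change 0.30, adjusted p = 0.00201) and not by DESeq2 (0.35, adjusted p = 0.594).

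Summed hepatocyte reads, like Cp, were higher in each DT than in each PBS library, though by little between DT 1 and PBS 4. Within DT, the order of the sums was the reverse of that of Cp. Of 20 hepatocyte markers 17 had counts, and Cps1, Cyp3a11 and Ass1 were at 0 throughout. Some of the 17 were nearly empty. Cyp2e1 had 1 count in PBS 1 and in PBS 4, Apob had reads in DT 3 alone (493 counts), and Apoa1 in PBS 1 and PBS 4 alone (186 and 41 counts). Ttr, Fgb, Fga and Hp overlapped between the groups, while Serpina1b was higher in each DT library. The summed level of the markers was 3763, 4435 and 5418 CPM in DT 1 to 3, and 2159, 2931, 2690 and 3741 CPM in PBS 1 to 4. Albumin (Alb), the main secreted protein of hepatocytes, was at 2062, 1398 and 1698 CPM in DT 1 to 3, and at 695, 973, 1142 and 1277 CPM in PBS 1 to 4. Gc, another of the markers, overlapped between the groups. It was at 784, 2140.5 and 2548 CPM in DT 1 to 3, and at 770, 1564, 1156 and 1851 CPM in PBS 1 to 4. Alb and Gc together made up most of the sum in each library. Within DT, Gc rose from DT 1 to DT 3 as the sum did, while Alb, like Cp, was highest in DT 1. Cp exceeded Alb in all 7 libraries, by 1.85, 2.52 and 1.94 times in DT and by 3.34, 3.03, 2.45 and 2.34 times in PBS. With a hepatocyte score (mean log2(CPM + 1) of 10 of the markers) as a covariate, the log2 fold change of Cp was 0.21 (edgeR adjusted p = 1.00), while the median over all genes was -0.49. The score was 6.75 to 7.33 in DT and 4.63 to 5.78 in PBS libraries, so that fit cannot tell hepatocyte reads and treatment apart. The part of hepatocyte reads in the Cp difference was not tested.

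Tfrc, the receptor for iron uptake, varied widely among libraries. It had 0, 480 and 846 counts in DT 1 to 3, and 1192, 210, 2598 and 426 counts in PBS 1 to 4. PBS 1 and PBS 3 were above every DT library, and PBS 2 and PBS 4 lay within the range of the DT libraries. Tfrc averaged 79.8 ± 75.1 CPM in DT (SD, n = 3) and 223 ± 223 CPM in PBS (SD, n = 4), a log2 fold change of -1.48 with an SE of 1.81 (edgeR adjusted p = 1.00). The 95% interval of the fold, 0.0180 to 7.12, left both large decreases and large increases possible. Without PBS 3 the log2 fold change was -0.60, without DT 1 it was -0.92, and without DT 3 it was -2.31. Its coefficient of variation, 94.2% in DT and 100% in PBS, exceeded the medians of 52.9% and 53.6% for 1020 genes of like level. Of all values of those genes 1.85% were 0. Judged by the rest of its group, however, Tfrc averaged between 400 and 800 counts in DT 2 and DT 3. At that level 12.4% of values were 0, so the 0 of Tfrc in DT 1 is not read as a result.

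Slc11a2, the transporter out of endosomes, had 86, 493 and 499 counts in DT 1 to 3, and 413, 382, 73 and 508 counts in PBS 1 to 4. In each group 1 library was low, DT 1 and PBS 3, and the others overlapped. It averaged 65.0 ± 43.9 CPM in DT (SD, n = 3) and 67.7 ± 36.7 CPM in PBS (SD, n = 4), a log2 fold change of -0.06 with an SE of 1.93 (edgeR adjusted p = 1.00). The 95% interval of the fold, 0.0648 to 14.2, is too wide to call the groups alike.

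Slc40a1, the iron exporter ferroportin, had 900, 612 and 375 counts in DT 1 to 3, and 86, 12, 993 and 569 counts in PBS 1 to 4. PBS 1 and PBS 2 were below every DT library, PBS 3 was above every one and PBS 4 lay among them. It averaged 110 ± 41.9 CPM in DT (SD, n = 3) and 84.0 ± 94.0 CPM in PBS (SD, n = 4), a log2 fold change of 0.39 with an SE of 1.38 (edgeR adjusted p = 1.00). Its highest PBS library was 86.5 times its lowest on the CPM scale, beside 2.26 times in DT. Without PBS 3 the log2 fold change was 1.33 and without PBS 2 it was -0.01. PBS 3, its highest library, had 56.4 summed CPM of macrophage markers, the lowest of the 7.

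Ireb2, the iron regulatory protein that is degraded when iron is plentiful, had 390, 0 and 432 counts in DT 1 to 3, and 544, 756, 0 and 407 counts in PBS 1 to 4. The groups overlapped, and each held 1 library at 0. It averaged 47.0 ± 41.1 CPM in DT (SD, n = 3) and 83.7 ± 62.6 CPM in PBS (SD, n = 4), a log2 fold change of -0.83 with an SE of 2.10 (edgeR adjusted p = 1.00). Among the 1876 genes of like level, 13.8% of all values were 0, so a library at 0 was not rare at this depth.

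**Figure D3:**
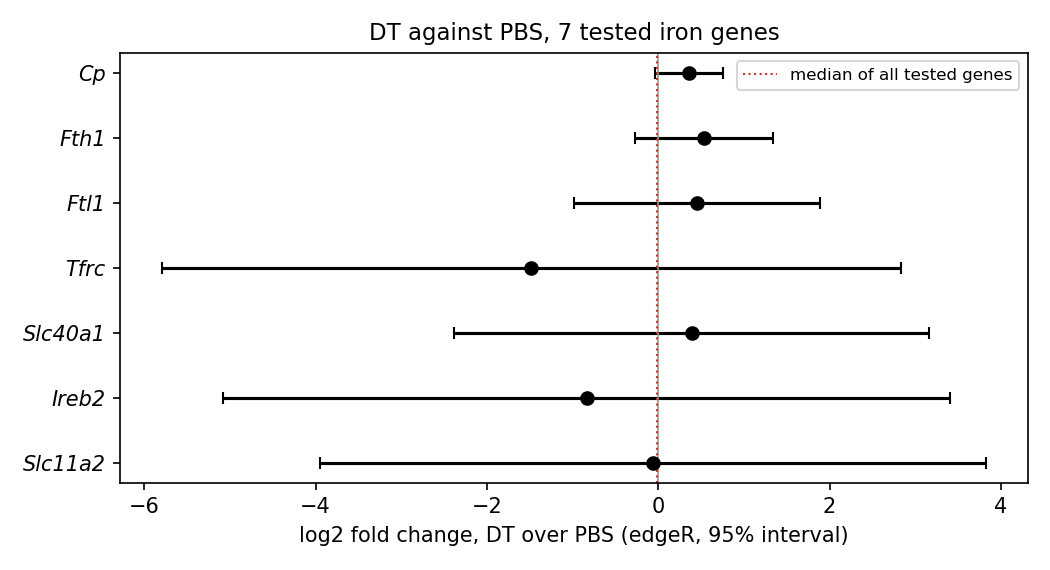
Log2 fold change of DT over PBS by edgeR for the 7 tested genes, with 95% intervals; the dotted line is the median of all tested genes (-0.02). Every interval includes 0, and those of Cp and Fth1 are the narrowest.

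The libraries that were left out moved the members unequally. With libraries left out singly, the log2 fold change of Cp ran from 0.27 to 0.40 and that of Fth1 from 0.35 to 1.14. Ftl1 ran from 0.09 to 1.14, Tfrc from -2.31 to -0.60 and Ireb2 from -1.38 to -0.25. Slc40a1 (-0.01 to 1.33) and Slc11a2 (-0.41 to 0.39) changed sign. PBS 4 gave the highest values of both ferritin chains when it was left out.

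**Figure D4:**
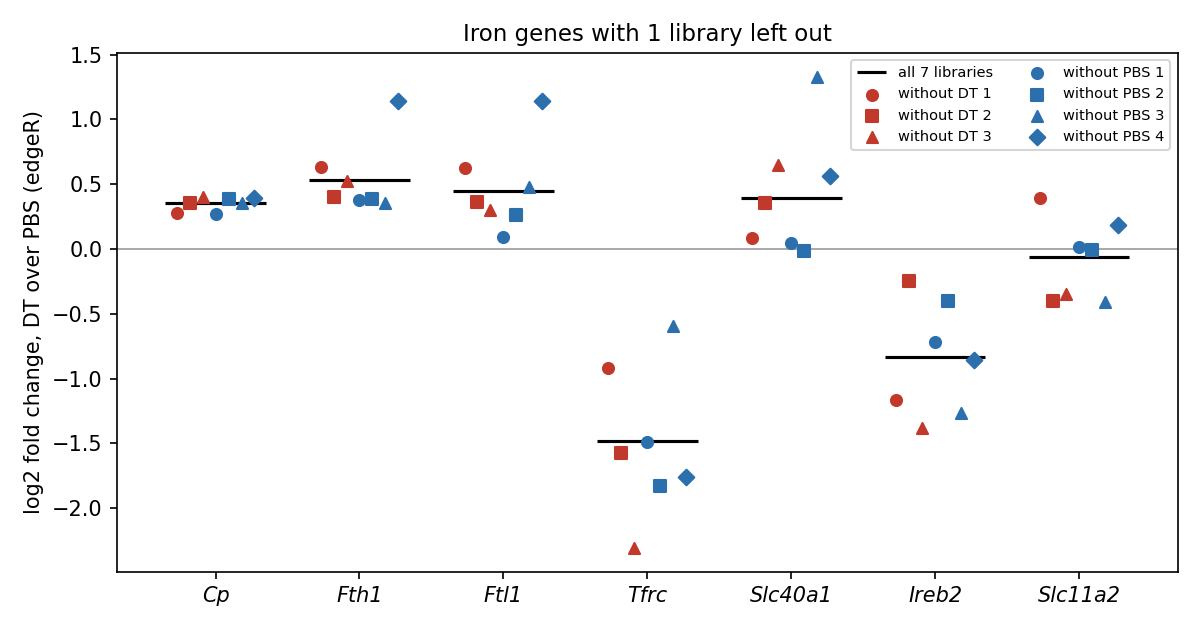
Log2 fold change of DT over PBS by edgeR for the 7 tested genes with all libraries (black line) and with 1 library left out (red, a DT library; blue, a PBS library). Fth1 and Ftl1 stand at 1.14 without PBS 4 (blue diamonds), while Cp stays between 0.27 and 0.40.

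The libraries also differed in Y-linked reads, which were present in DT 1 to 3 and in PBS 1 and absent from PBS 2 to 4. Sex and treatment therefore cannot be told apart except through PBS 1, which was the lowest PBS library for Ftl1 (79.8 CPM, beside 421 to 703 CPM in DT). With a covariate for Y-linked reads, Ftl1 had a log2 fold change of 2.90 (edgeR adjusted p = 0.0835), Fth1 1.11 (0.697) and Cp 0.61 (0.697), while the median over all genes was 0.67.

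The genes whose pattern over the 7 libraries was most like that of a member were taken from genes averaging at least 8 log2 CPM with reads in every library, by Pearson's r of log2(CPM + 1), and are given as a description. For Fth1, among 729 genes, they were Rpl12 (r = 0.97, Spearman's rho = 0.93), Apoe (0.95, 0.89) and Hspa4 (0.91, 0.96). Ftl1 was the 44th most like Fth1 (0.75, 0.75). For Ftl1 they were Ptprk (0.94, 0.86), Mrfap1 (0.90, 0.79) and Cst3 (0.89, 0.89). For Tfrc, among 730 genes, they were Mapre1 (0.99, 1), Lrrfip1 (0.97, 0.89) and Col4a1 (0.96, 0.68). The top 3 of so many genes over 7 libraries are high by selection, and the libraries share depth and the Y-linked and macrophage differences above.

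Other genes of iron handling, in 5 lists of 93 genes, were measured in the same fit. Of the 92 in the table, 14 had 0 counts in every library and 61 were tested. By edgeR 0 of the 61 passed and 2 (Lcn2 and Lrp1) had an unadjusted p below 0.05, beside the 3.5% of all tested genes. DESeq2 called 2 of the 60 it gave a p for (Lcn2 and Lrp1), beside 1.43% of all genes, and limma-voom 1 of 61 (Lcn2), beside 0.273%. Fold changes were positive for 32 genes and negative for 29. Every DT library lay above every PBS library for 5 of the 61, or 8.20%, beside 3.73% of all tested genes, and below for 1, or 1.64%, beside 2.58%. The 5 were Lcn2, Fbxl5, Fdx1, Slc3a2 and Lpcat3 and the 1 was Lrp1, of which Fbxl5 and Lpcat3 are named after their values were seen.

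The uptake and reduction list had 9 tested of 18 genes, 4 with positive and 5 with negative fold changes, and a median log2 fold change of -0.69. Lcn2, which binds iron-laden siderophores, was at 2712, 2418 and 1647 CPM in DT 1 to 3, and at 795, 1531, 1221 and 1039 CPM in PBS 1 to 4, so the groups did not overlap. Its log2 fold change was 0.98 (SE 0.26, edgeR adjusted p = 0.419; DESeq2 adjusted p = 0.0210). Lrp1, a receptor that takes up hemopexin-bound heme among many ligands, had 0 counts in each DT library, and 277, 1036, 91 and 123 counts in PBS 1 to 4, an average of 75.3 ± 87.4 CPM in PBS (SD, n = 4). Against a floor of 3 counts per library this was at least 142-fold lower in DT, and at least 60.8-fold lower without PBS 2, bounds for counting error only. It did not pass by edgeR (adjusted p = 1.00) and passed by DESeq2 (adjusted p = 3.97e-04). In this table, 28.4% of values were 0 for genes averaging 200 to 400 counts in the rest of their group. Transferrin itself (Trf) had a log2 fold change of 0.31 (SE 0.55), and the lysosomal heme transporter Slc48a1 1.85 (SE 2.60). Tfr2, Steap3, Cybrd1, Ltf and Slc46a1 had 0 counts in every library.

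The export and hepcidin control list had 10 tested of 17 genes, 5 positive and 5 negative, with a median of 0.18. Bmp6, the ligand that raises hepcidin in the liver, had a log2 fold change of -0.08 (SE 0.86), and the signal transducers Smad4 and Smad5 had -0.38 (SE 0.87) and -0.71 (SE 1.07). Neo1, a partner of hemojuvelin, had -0.03 (SE 1.61). Hepcidin (Hamp), the liver hormone that removes ferroportin from the membrane, was not tested, with 36 counts in DT 3, 1 in PBS 4 and 0 in the other 5 libraries.

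The sensing, chaperone and ferritin turnover list had 12 tested of 15 genes, 7 positive and 5 negative, with a median of 0.13. The iron chaperones Pcbp1 and Pcbp2 had log2 fold changes of 0.32 (SE 0.57) and 0.14 (SE 0.35). Nfe2l2, which encodes NRF2, an activator of ferritin transcription, had 0.56 (SE 0.42), and the ubiquitin ligase gene Herc2 had -1.15 (SE 0.68). Fbxl5, which directs the breakdown of the Ireb2 product, was at 141, 288 and 175 CPM in DT 1 to 3, and at 55.1, 76.1, 61.2 and 108 CPM in PBS 1 to 4. Its log2 fold change was 1.42 (SE 0.91, edgeR adjusted p = 1.00).

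The mitochondrial iron and iron-sulfur cluster list had 22 tested of 30 genes, 10 positive and 12 negative, with a median of -0.23. Hspa9, a chaperone of cluster assembly, had a log2 fold change of -0.24 (SE 0.33), and Glrx5, which passes clusters on, had -1.58 (SE 1.19). Fdx1, a ferredoxin, was at 329, 161 and 111 CPM in DT 1 to 3, and at 0, 3.55, 0 and 85.3 CPM in PBS 1 to 4, a log2 fold change of 3.17 with an SE of 1.78 (edgeR adjusted p = 1.00). Sfxn1, a mitochondrial serine carrier, had 1.33 (SE 1.23).

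The list of iron-dependent lipid peroxidation had 8 tested of 13 genes, 6 positive and 2 negative, with a median of 0.36. Slc3a2, a chain of the cystine importer, was at 701, 718 and 638 CPM in DT 1 to 3, and at 542, 522, 510 and 626 CPM in PBS 1 to 4. Its log2 fold change was 0.32 (SE 0.33, edgeR adjusted p = 1.00). Acsl4, which loads oxidisable fatty acids into lipids, had 0.44 (SE 0.52), Gch1, which starts tetrahydrobiopterin synthesis, had -0.89 (SE 0.64), and the polyamine acetyltransferase gene Sat1 had 0.19 (SE 1.07). Over all tested genes the median was -0.02, and with Lrp1 set at its bound each of the 5 medians was the same.

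**Figure D5:**
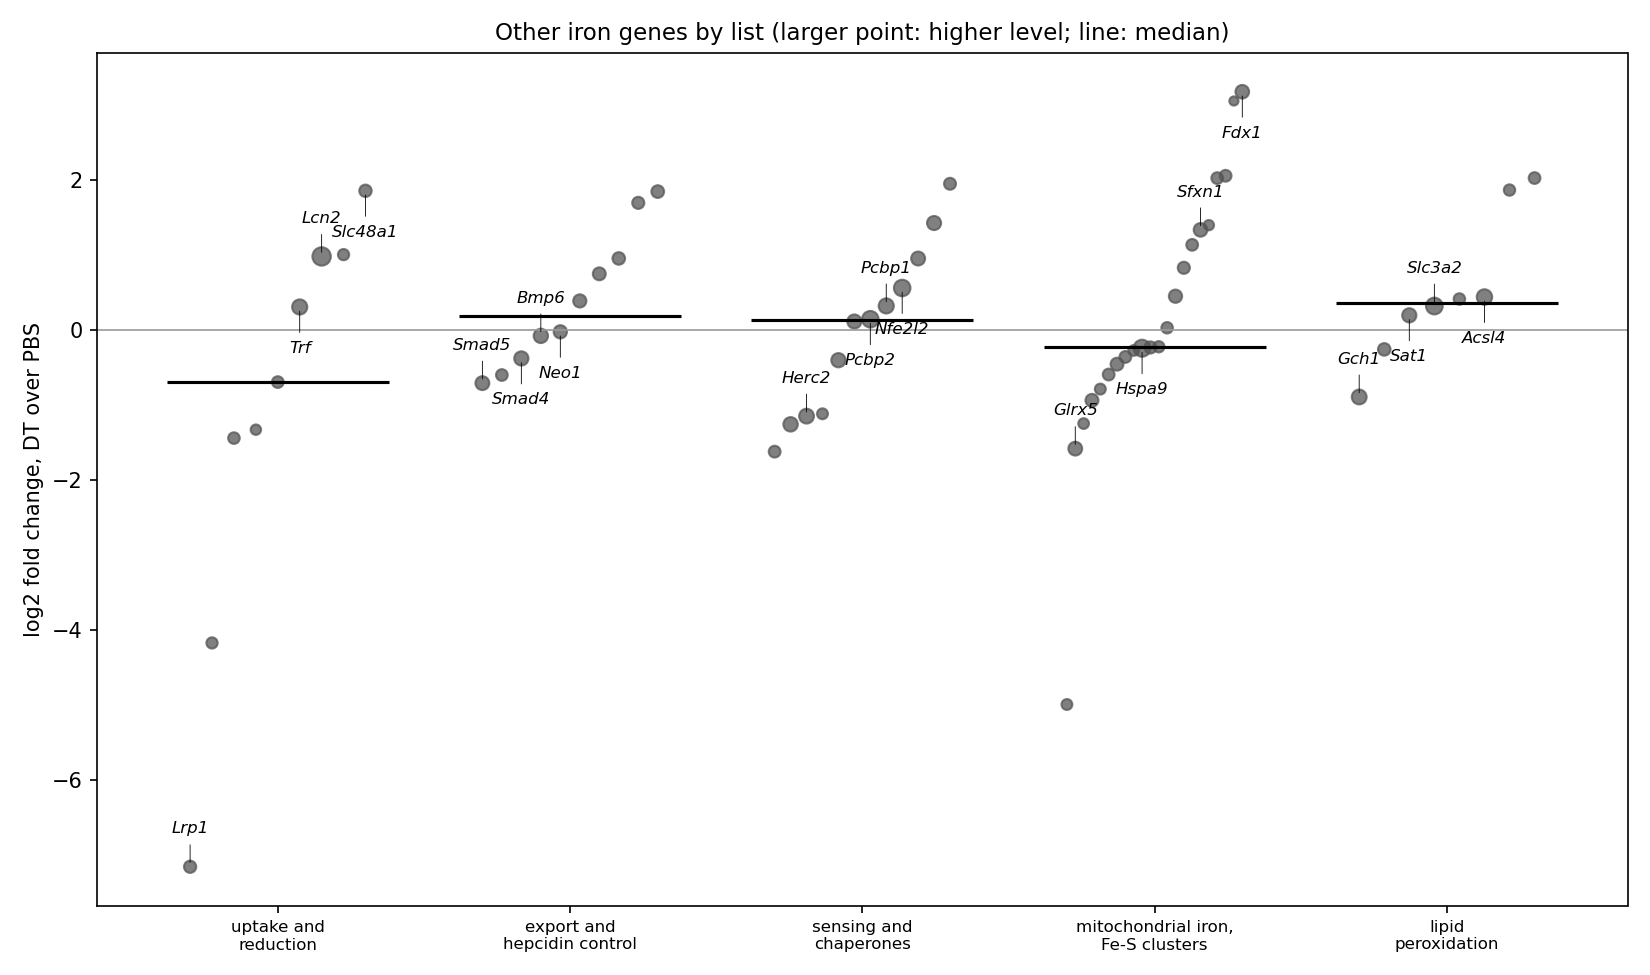
Log2 fold change of DT over PBS for the 61 tested genes of the 5 lists, 1 point per gene ordered by value, with the median of each list as a line and Lrp1 drawn at its bound. The medians run from -0.69 (uptake and reduction) to 0.36 (lipid peroxidation), and 0 genes passed the edgeR test.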

How the data were processed

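Gene expression was measured in 3 DT and 4 PBS libraries made from total RNA with a QuantSeq FWD kit, per the labels' protocols. The authors deposited whole-number read counts for each gene symbol without normalization, mapped to mm9 according to the submitters' processing notes. The aligner, counter and annotation were not given in the sources used here. Sample titles gave the groups and replicate numbers. Of 24552 symbols, 7688 passed filterByExpr. DT was compared with PBS by the quasi-likelihood F test of edgeR 4.0.16 (R 4.3.3) with TMM scaling and robust dispersion (two-sided), and p-values were adjusted over all tested genes by Benjamini-Hochberg. SEs were derived from F and the log2 fold change. CPM used TMM-scaled library sizes. The edgeR fit was tested on simulated counts in which only genes averaging at least 8 log2 CPM were changed. That test therefore does not bear on Tfrc, Slc40a1, Slc11a2 or Ireb2, which lie below that level. Its counts were drawn independently around a common level per gene in each group, with no library like PBS 4. No statement here on Cp, Fth1 or Ftl1 rests on it. Alternatives used DESeq2 1.42.0, limma 3.58.1, other scaling and filters, covariates, a replicate block and leaving out each library. The members and lists were chosen with earlier results of these data known. By rule, all members, every passing list gene and up to 4 list genes of highest mean CPM per list were named. Iron-responsive elements came from GENCODE M21 (GRCm38), not the build of the counts, and carry no genome coordinates here. Figures were drawn with matplotlib 3.10.9.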

Additional observations from a re-analysis of the deposited data

Results flagged for a closer look

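Among 29 values tested for a PBS library far from the other 3, 5 stood apart. For normally distributed values 1.45 would be expected by chance, but a gene at 0 in 3 of the 4 libraries always stands apart, which holds for Ncoa4 and Slc48a1 and nearly for Fdx1, so the 5 are not read against that number. Fth1 was at 2532 CPM in PBS 4 and at 766 to 840 CPM in PBS 1 to 3, so that the gap to the next library filled 0.958 of the PBS range. For Ncoa4 the gap filled 1 of the range, since PBS 4 alone had reads (7 counts). For Slc48a1 the share was 1, with 89.4 CPM in PBS 4 and 0 in the others. For Fdx1 the share was 0.958, with 85.3 CPM in PBS 4 and at most 3.55 CPM in the others. For Smad5 the share was 0.879, with 187 CPM in PBS 1 and 116 to 124 CPM in the others.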

How the results depend on the processing

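Each of the 7 tested members was recomputed under up to 17 alternatives, which gave 115 values, of which 104 kept their direction and their side of the threshold, 10 changed sign and 1 passed the threshold. The 1 was Cp by limma-voom (adjusted p = 0.00201, range over its alternatives 0.00201 to 1), the single member called (1, against 0 by edgeR). Tfrc stayed negative and Cp positive under every alternative that gave a value for them. With the hepatocyte score as a covariate the log2 fold changes of Fth1, Ftl1, Slc40a1 and Ireb2 turned to -1.36, -2.21, -6.09 and 2.29, while the median of all genes moved to -0.49. That score was higher in all DT than in all PBS libraries, so it could hardly be told apart from treatment. Slc11a2 turned to 0.24 by limma-voom and, under the replicate block, to 0.16, and leaving out libraries singly gave -0.41 to 0.39 (0.02 without PBS 1, 0.19 without PBS 4 and 0.39 without DT 1). Slc40a1 then ran from -0.0129 without PBS 2 to 1.33 without PBS 3. With the replicate number as a block the log2 fold change of Fth1 was 1.13 (adjusted p = 0.0522) and that of Ftl1 1.45 (adjusted p = 0.322). PBS 4 shares its number with no DT library and so adds nothing to that fit. Deviations from the group means correlated at -0.0490, -0.0122 and 0.0259 between same-numbered libraries. No pairing by number was thus detected, which does not exclude one. Over all genes, 0 were called higher and 3 lower in DT. The counts higher and lower were 1 and 7 with no filter, 27 and 78 by DESeq2, 15 and 6 by limma-voom, 6 and 6 under the block and 23 and 3 with Y-linked reads as a covariate. Lower genes numbered 5 among genes averaging at least 8 log2 CPM, a set without Tfrc, Slc11a2, Slc40a1 or Ireb2, and 0 with the hepatocyte score. With each library left out in turn, the calls were 0 to 1 higher, 1 to 4 lower and 0 members. The Fth1 share of ferritin counts in DT minus PBS, -0.393 percentage points, then lay between -5.01 and 4.79. Apart from smaller numbers of libraries or genes, the cause was not tested. Below about 800 counts the frequent values of 0 limit what can be seen for Slc40a1, Slc11a2, Ireb2 and Ncoa4, and for Tfrc in DT.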
